A study of Mus musculus with 6 samples.

Results

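Selenoprotein mRNAs of the nucleus, cytosol and mitochondria, and of secreted and plasma membrane proteins, were followed in mouse pancreatic islets that carried a conditional deletion of Trsp, the gene of the selenocysteine tRNA. The genes were the 7 that remain in the mouse once the glutathione peroxidases, the thioredoxin reductases, the selenoproteins of the endoplasmic reticulum, Sephs2, Dio2 and Dio3 are set aside: Selenoh, Selenow, Selenop, Selenoo, Selenov, Msrb1 and Dio1. They were found on the array through the RefSeq accession of each probe, which gave 9 probes, 1 for each gene and 3 for Dio1. The 7 genes were among 13370 named genes tested. All 9 probes were well above background on all 6 arrays.

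The samples were whole islets of 16-week-old mice of ICR background, given as male by the labels, in 3 groups of 2 arrays. Trsp-Ins1KO mice carried Trsp floxed on both alleles and Ins1-Cre, Trsp-RIPKO mice carried the same floxed alleles and RIP-Cre, and TrspFF mice carried the floxed alleles without Cre. A group with Cre alone is not among the samples analysed here, so Cre and the deletion cannot be told apart. Both Cre lines are used to delete genes in beta cells, while whole islets also hold alpha, delta, endothelial and other cells, in which the floxed gene may be intact. Whether both arrays of a group stand for different mice is not said in the labels, so p-values cover the spread between arrays alone, and that spread may be technical. The number of arrays limits the precision of every value. Trsp itself was not used here, so the deletion was not checked on its target.

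Selenocysteine is inserted at a UGA codon that would otherwise end translation, and the insertion needs the tRNA made from Trsp together with a hairpin in the 3′ part of the mRNA. For some selenoprotein mRNAs a failed insertion exposes the message to nonsense-mediated decay, while other selenoprotein mRNAs are little affected. Selenoh is a nuclear protein with a thioredoxin-like fold. Selenow is a small cytosolic protein of the same fold, and Selenov is a larger relative of it known mainly from testis. Selenop is secreted, chiefly by the liver, carries several selenocysteines and brings selenium to other tissues. Selenoo is a mitochondrial pseudokinase that transfers AMP to proteins. Msrb1 repairs oxidised methionine in the cytosol and nucleus. Dio1 is a membrane enzyme of liver, kidney and thyroid that removes iodine from thyroid hormone, and so belongs to none of the compartments in the working name of the set. The arrays measured mRNA and carry no information on where the proteins lie.

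The bases around the transcription start are shown for 3 of the genes, namely Selenoh and Selenop, which had the largest decreases in Trsp-Ins1KO, and Selenow, which passed as lower in Trsp-RIPKO and did not pass in Trsp-Ins1KO. Each window runs from 250 bases before to 50 bases after the start, 5′ to 3′ on the strand of the gene, as given by RefSeq for GRCm38.p6. Capitals mark matches to 6 motifs that were searched on both strands. Selenoh lies at chr2:84670659-84670958 on the minus strand, Selenow at chr7:15922322-15922621 on the minus strand, and the window of the most downstream of 3 Selenop starts at chr15:3270727-3271026 on the plus strand.
Selenoh: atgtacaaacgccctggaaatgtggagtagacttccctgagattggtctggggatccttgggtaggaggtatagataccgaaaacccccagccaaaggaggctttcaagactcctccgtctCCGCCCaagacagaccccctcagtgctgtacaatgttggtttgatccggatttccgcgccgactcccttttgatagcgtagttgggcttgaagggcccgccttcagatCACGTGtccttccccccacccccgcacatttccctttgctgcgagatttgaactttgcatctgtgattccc
Selenow: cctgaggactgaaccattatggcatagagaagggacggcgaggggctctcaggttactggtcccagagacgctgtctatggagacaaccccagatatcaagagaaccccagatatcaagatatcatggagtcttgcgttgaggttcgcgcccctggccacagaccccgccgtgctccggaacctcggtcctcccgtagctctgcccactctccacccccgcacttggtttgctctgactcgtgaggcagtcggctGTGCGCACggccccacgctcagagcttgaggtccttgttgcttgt
Selenop: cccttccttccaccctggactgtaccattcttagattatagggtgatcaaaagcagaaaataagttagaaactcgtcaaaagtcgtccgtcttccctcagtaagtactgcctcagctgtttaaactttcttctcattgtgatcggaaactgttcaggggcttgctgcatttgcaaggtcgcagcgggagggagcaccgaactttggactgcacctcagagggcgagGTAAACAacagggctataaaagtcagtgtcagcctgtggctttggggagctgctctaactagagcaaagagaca

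The Selenoh window held a GC box (GGGCGG on the opposite strand) at -129 and an E-box (CACGTG) at -21, counted from the start at 0. The Selenow window held 2 overlapping matches to the core of a metal response element (TGCGCNC or TGCACNC), at 5 and 6. The Selenop window held a forkhead motif (GTAAACA) at -24, and neither of the other Selenop windows held any of the 6 motifs. Of 32851 RefSeq windows of this length, 35.66% held the GC box, 7.15% the E-box, 25.7% the metal response core and 3.65% the forkhead motif. The GC box was also found in the Msrb1 window (3 matches) and the Selenov window (1 match), and the Dio1 and Selenoo windows held none of the 6. The core of the antioxidant response element (TGACNNNGC, in 12.39% of windows) and a nuclear receptor half-site (AGGTCA, in 16.26%) were in none of the 9 windows of these 7 genes. A match describes letters only.

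Levels are given as log2 processed intensity minus the 75th percentile of the array, so that 0 is the intensity at that percentile, and each probe is compared only with itself. The 75th percentile was 110.7 to 121.9 intensity units on the Trsp-Ins1KO arrays, 203 to 215.2 on the Trsp-RIPKO arrays and 218.1 to 247.2 on the TrspFF arrays, and no spot was saturated. Relative to that percentile the median control spike-in spot lay at 1.53 to 1.56 on the Trsp-Ins1KO arrays, 0.45 to 0.50 on the Trsp-RIPKO arrays and 0.13 to 0.35 on the TrspFF arrays, so the values are relative to the bulk of the islet mRNA on each array. Slide 1 held the Trsp-Ins1KO and TrspFF arrays and slide 2 held the Trsp-RIPKO arrays alone, so slide and genotype cannot be told apart in any comparison with Trsp-RIPKO. In the authors' deposited table of log2 values, the 2 columns named TrspFF matched the arrays filed as Trsp-Ins1KO (r = 1 over 23199 probes) and the 2 columns named Trsp-Ins1KO matched the arrays filed as TrspFF. All directions here follow the titles of the array files; under the table's names every sign of Trsp-Ins1KO minus TrspFF turns round, and Trsp-RIPKO is set against the arrays filed as Trsp-Ins1KO. Xist, an RNA of the inactive X chromosome, was not well above background on the Trsp-Ins1KO arrays (-5.79 and -5.60) but was so on the Trsp-RIPKO arrays (1.05 and 1.34) and the TrspFF arrays (-0.56 and -0.32), while the 4 Y-linked genes measured were above background on all 6 arrays. The Xist signal on these 4 arrays goes against the label of male. In Trsp-RIPKO minus TrspFF Xist was 1.63 higher on the log2 scale. The Y-linked Ddx3y, Eif2s3y, Kdm5d and Uty were lower there (-1.36, -1.12, -0.84 and -0.84). With the normexp background correction Kdm5d was -0.18 and Uty -0.24. The make-up by sex may thus differ between groups, and it cannot be told apart from genotype. None of the 7 genes lies on a sex chromosome, and whether sex bears on their values was not tested.

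The nuclear member Selenoh and the secreted member Selenop had the largest decreases of the 7 genes in the Trsp-Ins1KO islets, each to about the same extent, and Selenoh the largest in the Trsp-RIPKO islets. In the Trsp-Ins1KO islets 2 of the 7 genes fell (Selenoh and Selenop), 1 rose (Msrb1) and 4 did not pass the test. A gene was counted by its brightest probe at an adjusted p under 0.05 in limma, adjusted over all 23199 probes tested. By the same test 44.6% of all probes were called, 22.6% lower and 22% higher, and the 3 genes called, 42.9% of the 7, are close to that share. In the Trsp-RIPKO islets 5 of the 7 fell (Selenoh, Selenow, Selenop, Selenoo and Dio1), 1 rose (Selenov) and Msrb1 did not pass, which is 85.7% of the 7, where 33.7% of all probes were called, 16.2% lower and 17.5% higher. The median difference of the 7 genes was -0.03 in Trsp-Ins1KO and -0.35 in Trsp-RIPKO on the log2 scale, where the median of all probes was -0.02 and 9e-04. Both comparisons use the same 2 TrspFF arrays. Of the 6 calls in Trsp-RIPKO, the one on Selenoh alone was kept in each of the 6 fits that left out 1 array. The other 5 were lost when any 1 of the 4 arrays of Trsp-RIPKO and TrspFF was left out, when between 718 and 3186 probes were called over the whole array in place of 7820. Scaling each array to its median in place of its 75th percentile shifted the median of all probes by -0.24 in Trsp-RIPKO and by -0.07 in Trsp-Ins1KO. Under that scaling 21.3% of the probes called in Trsp-RIPKO were higher, against 52% under the reported one, and 5 of the 7 genes fell and 0 rose.

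**Figure D1:**
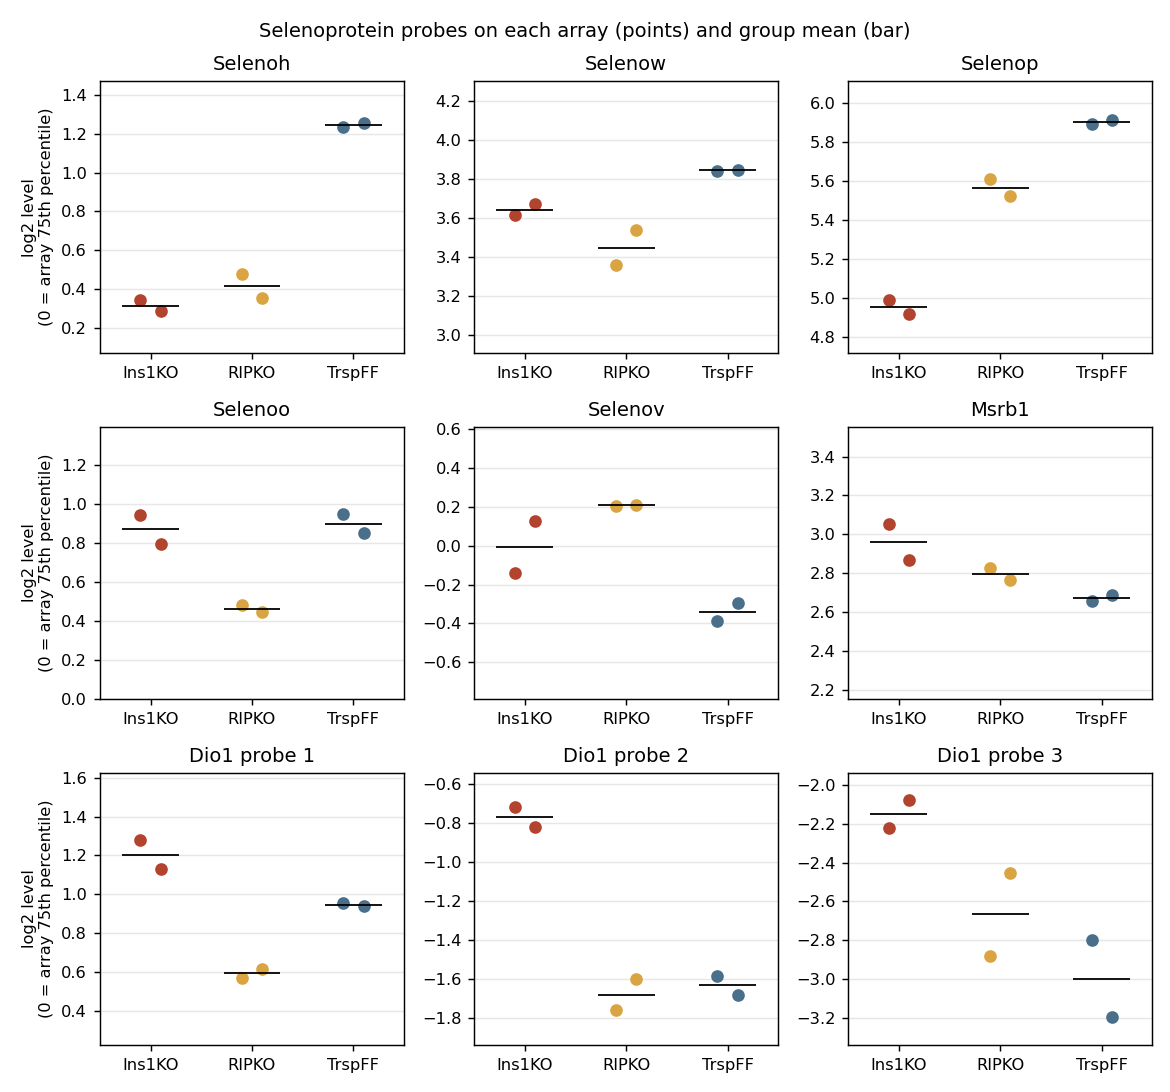
Level of each of the 9 probes on each array, as log2 intensity minus the array's 75th percentile; points are the 2 arrays of a group, bars the group mean, and every panel spans the same log2 range. Selenoh and Selenop are lowest in Trsp-Ins1KO and highest in TrspFF, and Dio1 probe 2 is high in Trsp-Ins1KO alone.

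Selenoh, the nuclear member, was at 0.34 and 0.29 in the 2 Trsp-Ins1KO samples, 0.48 and 0.36 in Trsp-RIPKO and 1.23 and 1.26 in TrspFF. Both TrspFF arrays were above all 4 knockout arrays. The log2 difference was -0.93 in Trsp-Ins1KO minus TrspFF (SE 0.0771, 95% interval -1.13 to -0.73, limma adjusted p = 0.00225) and -0.83 in Trsp-RIPKO minus TrspFF (SE 0.0771, interval -1.02 to -0.63, adjusted p = 0.00564). The Selenoh level was 0.524 times that of TrspFF in Trsp-Ins1KO and 0.563 times in Trsp-RIPKO. The 2 knockouts differed from each other by -0.10 (Trsp-Ins1KO minus Trsp-RIPKO, interval -0.30 to 0.09, adjusted p = 0.338), which did not pass. Both decreases passed the test under all 17 alternatives that kept the file titles, some of which repeat the same fit. In these whole-islet samples, fewer cells of a type and less RNA per cell cannot be told apart.

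Selenop, the selenium carrier, was at 4.99 and 4.92 in the 2 Trsp-Ins1KO samples, 5.61 and 5.52 in Trsp-RIPKO and 5.89 and 5.91 in TrspFF. The 3 groups did not overlap, with Trsp-Ins1KO lowest and TrspFF highest. The log2 difference was -0.95 in Trsp-Ins1KO minus TrspFF (SE 0.0735, 95% interval -1.14 to -0.76, adjusted p = 0.00201) and -0.34 in Trsp-RIPKO minus TrspFF (SE 0.0735, interval -0.52 to -0.15, adjusted p = 0.0261). Its level was 0.517 times the TrspFF level in Trsp-Ins1KO and 0.792 times in Trsp-RIPKO. The knockouts differed by -0.61 (Trsp-Ins1KO minus Trsp-RIPKO, SE 0.0735, interval -0.80 to -0.43, adjusted p = 0.00487), and this difference passed in all 6 fits that left out 1 array. The smaller decrease in Trsp-RIPKO was lost when any 1 array of its 2 groups was left out (highest adjusted p = 0.134) and with quantile normalization (-0.22, adjusted p = 0.0596). The summed level of 3 delta cell markers (Sst, Hhex and Rbp4) had the same order. It was 152.4 to 162.3 times the 75th percentile in Trsp-Ins1KO, 220.7 to 233.4 times in Trsp-RIPKO and 267.2 to 271.2 times in TrspFF. All 3 fell in Trsp-Ins1KO. In Trsp-RIPKO 0 of the 3 passed, with Sst at -0.27, Rbp4 at -0.11 and Hhex at 0.23 against TrspFF. The summed level of 4 alpha cell markers also had this order (437.9 to 456.8, 545.5 to 590 and 643 to 670.2). Of these 4, 2 fell in Trsp-Ins1KO and 0 passed in Trsp-RIPKO. The part of delta or alpha cells in the Selenop difference was not tested.

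Selenow, the small cytosolic member, was at 3.61 and 3.67 in the 2 Trsp-Ins1KO samples, 3.36 and 3.54 in Trsp-RIPKO and 3.84 and 3.85 in TrspFF. Every knockout array lay below both TrspFF arrays, and the 2 Trsp-RIPKO arrays were spread more widely than the others. The decrease passed in Trsp-RIPKO, at -0.40 (SE 0.0866, 95% interval -0.62 to -0.18, adjusted p = 0.0261), and was lost when any 1 array of Trsp-RIPKO or TrspFF was left out (highest adjusted p = 0.129). In Trsp-Ins1KO the difference was -0.20 (interval -0.42 to 0.02, adjusted p = 0.114) and did not pass. The test of the 2 knockouts against each other gave 0.19 (interval -0.03 to 0.42, adjusted p = 0.137), so a different size of change in the 2 lines was not shown.

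Selenov, which is related to Selenow, was at -0.14 and 0.13 in the 2 Trsp-Ins1KO samples, 0.21 and 0.21 in Trsp-RIPKO and -0.39 and -0.29 in TrspFF. The 2 TrspFF arrays were lowest, the opposite of the order for Selenow. Selenov rose in Trsp-RIPKO by 0.55 (SE 0.109, 95% interval 0.27 to 0.82, adjusted p = 0.0212), a level 1.46 times that of TrspFF. That call was lost when any 1 array of the 2 groups was left out (highest adjusted p = 0.119) and under scaling to the median (0.31, adjusted p = 0.0502). In Trsp-Ins1KO the difference was 0.33 (interval 0.06 to 0.61, adjusted p = 0.0582), and the knockouts differed by -0.21 (adjusted p = 0.183). The 2 Trsp-Ins1KO arrays were 0.27 apart, the widest gap between arrays of a group for any brightest probe of the 7 genes.

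Selenoo, the mitochondrial member, was at 0.94 and 0.80 in the 2 Trsp-Ins1KO samples, 0.48 and 0.44 in Trsp-RIPKO and 0.95 and 0.85 in TrspFF. The Trsp-Ins1KO and TrspFF arrays overlapped and both Trsp-RIPKO arrays lay below them. Selenoo fell in Trsp-RIPKO by 0.44 on the log2 scale (SE 0.0861, 95% interval -0.66 to -0.22, adjusted p = 0.0205), to 0.738 times the TrspFF level, and differed by -0.03 in Trsp-Ins1KO (interval -0.25 to 0.19, adjusted p = 0.796). Trsp-Ins1KO minus Trsp-RIPKO was 0.41 (interval 0.19 to 0.63, adjusted p = 0.0206), and 0.07 with normexp correction (adjusted p = 0.461), which did not pass. The decrease in Trsp-RIPKO was lost when any 1 array of its groups was left out (highest adjusted p = 0.124) and with the normexp background correction (-0.15, adjusted p = 0.126). The difference between the knockouts was lost without Trsp-Ins1KO 1, Trsp-RIPKO 1 or Trsp-RIPKO 2 (highest adjusted p = 0.0858).

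**Figure D2:**
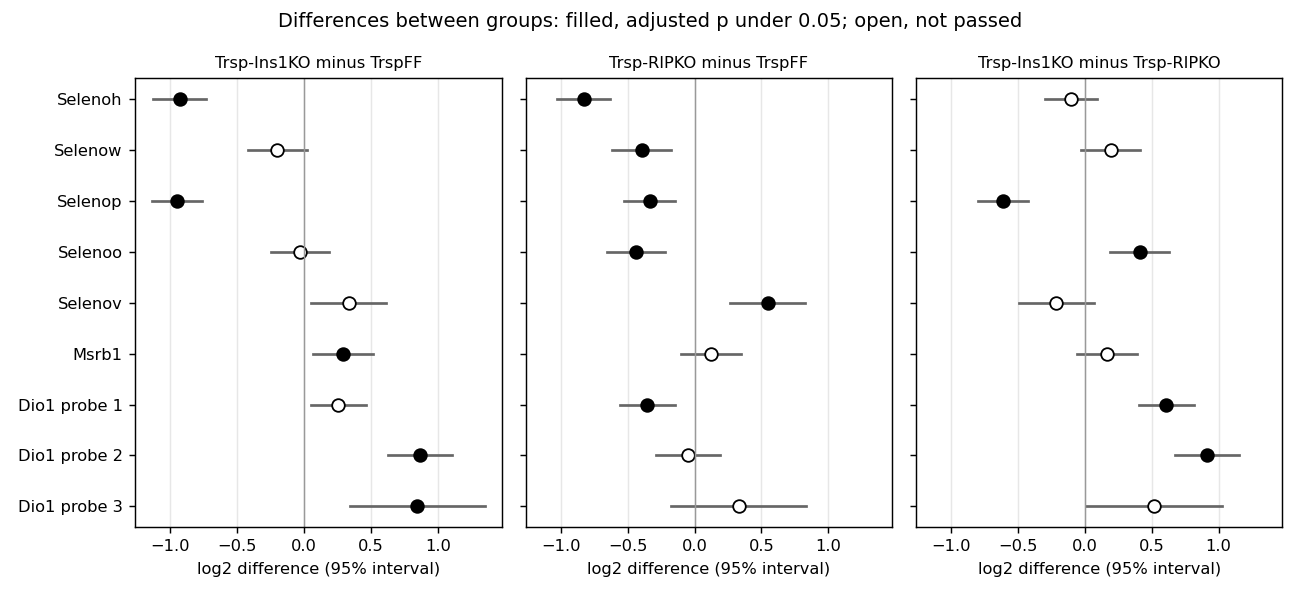
Log2 difference of each probe in the 3 comparisons with its 95% interval; filled points passed an adjusted p of 0.05 and open points did not. Selenoh lies near -0.9 against TrspFF in both knockouts and near 0 between them, while Selenop and Dio1 probe 2 differ between the knockouts in opposite directions.

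Msrb1, the methionine sulfoxide reductase that contains selenocysteine, was at 3.05 and 2.87 in the 2 Trsp-Ins1KO samples, 2.83 and 2.77 in Trsp-RIPKO and 2.65 and 2.69 in TrspFF. All 4 knockout arrays were above both TrspFF arrays by a small margin. Msrb1 rose in Trsp-Ins1KO by 0.29 (SE 0.0882, 95% interval 0.06 to 0.51, adjusted p = 0.0486), and differed by 0.13 in Trsp-RIPKO (interval -0.10 to 0.35, adjusted p = 0.309). The call in Trsp-Ins1KO was kept without Trsp-Ins1KO 2 and lost in the other 5 fits that left out 1 array (highest adjusted p = 0.195). Leaving out either Trsp-RIPKO array gives the same fit as the 2 groups alone, the comparison within slide 1, so the call was lost there too. With normexp correction the difference was -0.0033.

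The 3 reductases of the same kind of substrate that need no selenocysteine were Msra, Msrb2 and Msrb3, and 1 of them passed in Trsp-Ins1KO and 2 in Trsp-RIPKO. Msra, which repairs the other stereoisomer of oxidised methionine, fell in Trsp-Ins1KO by 0.41 on the log2 scale (adjusted p = 0.0182). Msrb2, a mitochondrial enzyme, fell in Trsp-RIPKO by 0.31 (adjusted p = 0.0262), and Msrb3 rose there by 1.01 (adjusted p = 0.0184), which was 0.41 with normexp correction. Each of these 3 calls was lost without at least 3 of the arrays taken singly (highest adjusted p = 0.106 for Msra, 0.154 for Msrb2 and 0.0862 for Msrb3). Between the knockouts Msrb2 differed by 0.28 (adjusted p = 0.0291), a call kept in 0 of the 6 fits that left out 1 array. Fibroblast and stellate markers had a summed level of 4.75 to 4.97 in Trsp-Ins1KO, 19.2 to 19.3 in Trsp-RIPKO and 12.6 to 13 in TrspFF, with 5 of the 6 lower and 1 higher in Trsp-Ins1KO and 5 of the 6 higher in Trsp-RIPKO. The 5 lower calls in Trsp-Ins1KO were kept in all 6 fits that left out 1 array, and the higher one, Pdgfrb, was lost in 3 of them (highest adjusted p = 0.0727). In Trsp-RIPKO 0 of the 5 calls were kept without TrspFF 1 (highest adjusted p = 0.177, for Dcn). In Trsp-Ins1KO, where 5 of the 6 markers fell, Msrb3 differed by 0.52 (limma adjusted p = 0.0774) and did not pass. The part of fibroblast and stellate cells in the Msrb3 values was not tested.

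Dio1 was read by 3 probes that differed in level and in response. The brightest, probe 1, was at 1.28 and 1.13 in the 2 Trsp-Ins1KO samples, 0.57 and 0.62 in Trsp-RIPKO and 0.96 and 0.94 in TrspFF. The 3 groups did not overlap, with Trsp-Ins1KO highest and Trsp-RIPKO lowest. Probe 2 was at -0.72 and -0.82 in the 2 Trsp-Ins1KO samples, -1.76 and -1.60 in Trsp-RIPKO and -1.58 and -1.68 in TrspFF. Probe 3 was at -2.22 and -2.08 in the 2 Trsp-Ins1KO samples, -2.88 and -2.45 in Trsp-RIPKO and -2.80 and -3.20 in TrspFF. On probes 2 and 3 the Trsp-RIPKO and TrspFF arrays overlapped and the Trsp-Ins1KO arrays lay above all 4 of them. Before scaling, probe 2 was at 74.2 and 62.7 intensity units in Trsp-Ins1KO, 63.4 and 67.0 in Trsp-RIPKO, and 82.5 and 67.9 in TrspFF. Probe 3 was at 26.2 and 26.2, 29.2 and 37.1, and 35.5 and 23.8. On neither did both Trsp-Ins1KO arrays then lie above all the others. With normexp correction Trsp-Ins1KO minus TrspFF was 0.64 on probe 2 and 0.60 on probe 3. Whether the dimness of these probes bears on their differences was not tested.

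Against TrspFF, the Trsp-Ins1KO difference was 0.26 on probe 1 (SE 0.0811, adjusted p = 0.0531), 0.86 on probe 2 (SE 0.0936, adjusted p = 0.00357) and 0.85 on probe 3 (SE 0.198, adjusted p = 0.0229). The call on probe 2 was kept in all 6 fits that left out 1 array and that on probe 3 in 3 of them (highest adjusted p = 0.0975). The Trsp-RIPKO difference was -0.35 on probe 1 (SE 0.0811, adjusted p = 0.0292), -0.05 on probe 2 (adjusted p = 0.719) and 0.33 on probe 3 (adjusted p = 0.242), so the probes disagreed on Dio1 in Trsp-RIPKO. The mean over the 3 probes differed there by -0.02 (adjusted p = 0.879), and the call on probe 1 was lost when any 1 array of the 2 groups was left out (highest adjusted p = 0.148). Trsp-Ins1KO minus Trsp-RIPKO was 0.61 on probe 1 (adjusted p = 0.00618), 0.91 on probe 2 (adjusted p = 0.00345) and 0.52 on probe 3 (adjusted p = 0.0985), and the calls on probes 1 and 2 were kept in all 6 fits that left out 1 array.

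Hepatocyte markers, like Dio1, were highest in Trsp-Ins1KO, while in Trsp-RIPKO the first Dio1 probe was lower than in TrspFF and the summed hepatocyte level was not. Of the 6 that could be tested out of 8, all 6 were higher in Trsp-Ins1KO than in TrspFF and than in Trsp-RIPKO, and 1 (Apoc3) passed in Trsp-RIPKO minus TrspFF, a call lost in 4 of the 6 fits that left out 1 array (highest adjusted p = 0.142). Against TrspFF the calls on Alb, Apoa2, Ahsg and Apoc3 in Trsp-Ins1KO were kept in all 6 fits that left out 1 array, while those on Fgb and Tat were lost in 1 and 3 of them (highest adjusted p = 0.0502 for Fgb and 0.119 for Tat). Their summed level was 8.45 to 8.50 in Trsp-Ins1KO, 4.14 to 4.43 in Trsp-RIPKO and 3.63 to 3.74 in TrspFF. The sum is carried mainly by Apoa2 and Tat. Their mean log2 levels were 2.09 and 0.88 in Trsp-Ins1KO, 1.39 and 0.56 in Trsp-RIPKO, and 1.08 and 0.49 in TrspFF. Between the knockouts Tat differed by 0.32, and by 0.23 to 0.41 with 1 array left out. Alb, the albumin gene, was at -0.21 and -0.23 on the Trsp-Ins1KO arrays and was not well above background on the Trsp-RIPKO or TrspFF arrays, so that it was at least 17.2-fold higher in Trsp-Ins1KO than in TrspFF (adjusted p = 0.00224). That bound sets the mean of the Trsp-Ins1KO arrays against the dimmest signal well above background on each TrspFF array. The part of hepatocyte RNA in the Dio1 values was not tested. Selenop, which liver also secretes, was lowest in the same Trsp-Ins1KO arrays in which the hepatocyte markers were highest.

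Dio1 acts on thyroid hormone, and 6 of 9 genes of thyroid hormone handling could be tested. In Trsp-Ins1KO 1 of the 6 rose, Thra, a thyroid hormone receptor (0.79, adjusted p = 0.00583), and 1 fell, Slc16a10, a transporter of aromatic amino acids and thyroid hormone (-0.50, adjusted p = 0.00855). The Thra call was kept in all 6 fits that left out 1 array, and that on Slc16a10 was lost without TrspFF 1 (adjusted p = 0.0636). In Trsp-RIPKO 0 of the 6 passed in limma after adjustment, and 1 was lower and 1 higher at an unadjusted p under 0.05. Klf9, a thyroid hormone target, differed by 0.08 in Trsp-Ins1KO (adjusted p = 0.355) and -0.13 in Trsp-RIPKO (adjusted p = 0.171). The median difference of the 6 was 0.03 in Trsp-Ins1KO and 0.01 in Trsp-RIPKO, where 44.6% and 33.7% of all probes were called. Dio2 and Dio3, the other deiodinases, were not well above background on every array of any group.

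The 2 knockouts were then set against each other. The differences do not use the TrspFF arrays, but the estimate of spread behind the p-values does. With the 2 knockouts fitted alone 5864 probes were called, in place of 8390 in the fit to all 6 arrays. Of the 7 genes 1 was lower in Trsp-Ins1KO (Selenop), 2 were higher (Selenoo and Dio1) and 4 did not pass, where 36.2% of all probes were called, 18.5% lower and 17.7% higher. The arrays of the 2 knockouts did not overlap for any of the 7 genes by their brightest probe, which was so for 70.6% of all probes. Against TrspFF the groups did not overlap for 6 of the 7 genes in Trsp-Ins1KO and 7 of the 7 in Trsp-RIPKO, which was so for 76.5% and 76.1% of all probes. Scaling to the median shifted the median of all probes by 0.17 in this comparison, and 70.6% of the probes called were then higher, against 48.8% under the reported scaling. The same 3 genes passed under that scaling, together with Selenow.

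**Figure D3:**
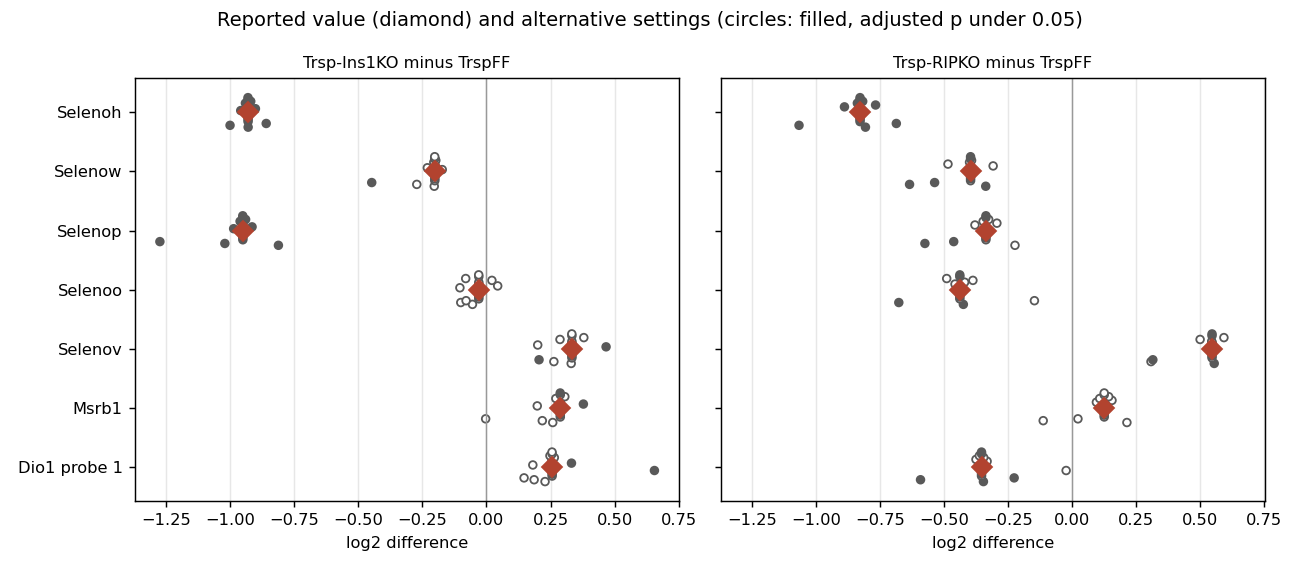
Log2 difference of the brightest probe of each gene against TrspFF as reported (diamond) and under the 17 alternatives that kept the file titles (circles, filled where the adjusted p was under 0.05). The Selenoh circles are all filled in both panels, and those of Selenop in the Trsp-Ins1KO panel; in the Trsp-RIPKO panel 5 genes have both filled and open circles.

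The remaining selenoproteins set the 7 genes in their family. Of the 15 others that could be tested out of 17, Trsp-Ins1KO islets had 8 lower, 4 higher and 3 that did not pass, with a median of -0.23, and Trsp-RIPKO islets had 7 lower, 1 higher and 7 that did not pass, with a median of -0.36. Of all probes, 22.6% were called lower and 22% higher in Trsp-Ins1KO, and 16.2% lower and 17.5% higher in Trsp-RIPKO. Selenot, of the endoplasmic reticulum, had the largest decrease in both (-1.32 in Trsp-Ins1KO and -1.04 in Trsp-RIPKO). Gpx1, the cytosolic glutathione peroxidase, differed by -1.15 in Trsp-Ins1KO and by -0.74 in Trsp-RIPKO, where it was -0.43 with normexp correction. Gpx4, which reduces lipid peroxides, differed by -0.89 in Trsp-Ins1KO and by -0.79 in Trsp-RIPKO. Gpx2, the gastrointestinal glutathione peroxidase, rose by 2.01 in Trsp-Ins1KO and 0.90 in Trsp-RIPKO. By the size of the Trsp-Ins1KO difference, Selenoh and Selenop lay between Gpx1 and Gpx4. With 1 array left out, the number that fell ranged from 3 to 7 in Trsp-Ins1KO and from 0 to 7 in Trsp-RIPKO. Selenot, Gpx1, Gpx4 and Gpx2 passed in all 6 such fits in Trsp-Ins1KO, and Gpx2 in all 6 in Trsp-RIPKO. In Trsp-RIPKO the Selenot call was lost without either TrspFF array (highest adjusted p = 0.0639), the Gpx1 call without Trsp-RIPKO 2 or either TrspFF array (0.0799), and the Gpx4 call without TrspFF 1 (adjusted p = 0.0556). Of 4 intestine markers tested, 2 rose in Trsp-Ins1KO and 3 in Trsp-RIPKO. Their summed level was 9.05 to 9.56 in Trsp-Ins1KO, 9.51 to 9.71 in Trsp-RIPKO and 7.09 to 7.40 in TrspFF. The sum is carried by Vil1, with mean log2 levels of 2.91 in Trsp-Ins1KO, 2.76 in Trsp-RIPKO and 2.64 in TrspFF. The call on Vil1 in Trsp-Ins1KO was kept in 0 of the 6 fits that left out 1 array (highest adjusted p = 0.172), and that on Lgals4 in Trsp-RIPKO was lost without either TrspFF array (highest adjusted p = 0.0535). Fabp1 among them was not well above background on the TrspFF arrays. Fabp2 was well above background on the Trsp-RIPKO arrays alone, and was at least 11.1-fold higher there than in TrspFF. The part of intestine RNA in the Gpx2 values was not tested.

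**Figure D4:**
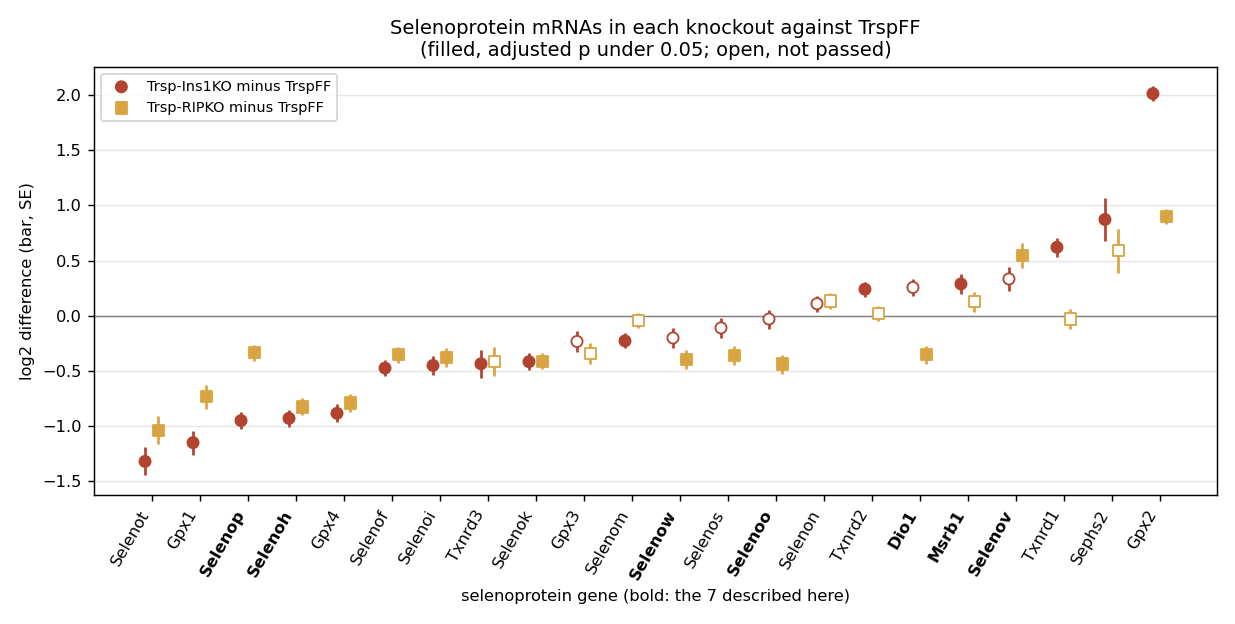
Log2 difference against TrspFF, with its SE, of the brightest probe of each of 22 selenoprotein genes in Trsp-Ins1KO (circles) and Trsp-RIPKO (squares), ordered by the Trsp-Ins1KO value; filled symbols passed an adjusted p of 0.05. Selenop and Selenoh stand between Gpx1 and Gpx4 at the low end for Trsp-Ins1KO, and Selenov, Msrb1 and Dio1 among the genes above 0.

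Genes that make selenocysteine, insert it or handle selenium were also followed, 11 of 12 being testable. In Trsp-Ins1KO 5 were higher, 1 was lower and 5 did not pass, with a median of 0.12. Over all probes 44.6% were called there, 22% higher and 22.6% lower. Scly, which frees selenium from selenocysteine, rose by 0.72 (adjusted p = 0.00419), and Lrp8, a receptor through which Selenop is taken up, rose by 0.68 (adjusted p = 0.00467). Sars, the seryl-tRNA synthetase that charges the selenocysteine tRNA with serine, rose by 0.57 (adjusted p = 0.00437), and Eefsec, the elongation factor for selenocysteine, by 0.54 (adjusted p = 0.00771). The fifth that rose was Pstk, the kinase of the seryl tRNA, at 0.44 (adjusted p = 0.0153), and the gene that fell was Selenbp1, a selenium-binding protein without selenocysteine, at -0.36 (adjusted p = 0.0267), which was 0.14 with normexp correction. With that correction Scly was 0.46, Sars 0.28 and Pstk 0.26 higher. The calls on Scly, Lrp8 and Sars were kept in all 6 fits that left out 1 array, while that on Eefsec was lost without TrspFF 2 (adjusted p = 0.0541), that on Pstk without Trsp-Ins1KO 2 or TrspFF 1 (highest adjusted p = 0.0949), and that on Selenbp1 in 5 of the 6 (highest adjusted p = 0.142). In Trsp-RIPKO 1 was higher, 0 were lower and 10 did not pass in limma, with a median of -0.06, and 1 was lower at an unadjusted p under 0.05. The gene that rose there was Selenbp1, at 0.59 (adjusted p = 0.0126), a call lost when any 1 array of the 2 groups was left out (highest adjusted p = 0.0859), and the difference was 0.30 with normexp correction and 0.35 with median scaling. Between the knockouts 5 were higher in Trsp-Ins1KO and 1 was lower, among them Lrp8 at 0.74 higher, where 36.2% of all probes were called. In the Trsp-Ins1KO islets the Selenop mRNA was thus lower and that of its receptor Lrp8 higher than in TrspFF.

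Markers of several cell types differed between the groups, where 44.6% of all probes were called in Trsp-Ins1KO and 33.7% in Trsp-RIPKO against TrspFF. The 9 beta cell markers summed to 5824 to 6401 times the 75th percentile in Trsp-Ins1KO, 3530 to 3786 times in Trsp-RIPKO and 3139 to 3531 times in TrspFF, and 6 of the 9 rose and 1 fell in Trsp-Ins1KO. The sum is carried by Ins1, Ins2 and Iapp, whose differences in Trsp-Ins1KO were 0.99, 0.86 and 0.83, but 0.18, 0.04 and 0.27 with quantile normalization. Of the 7 calls, that on Nkx6-1 was lost without either TrspFF array (highest adjusted p = 0.1), and it was 0.07 with normexp correction. In Trsp-RIPKO 0 of the 9 rose and 3 fell, namely Nkx6-1 at -0.57, Slc2a2 at -0.61 and Ucn3 at -1.21. The Ucn3 call was kept in all 6 fits that left out 1 array, while those on Nkx6-1 and Slc2a2 were lost in 3 of them (highest adjusted p = 0.0804 and 0.0718). The defining islet markers Ins1, Ins2 and Gcg were well above background on all 6 arrays. The 9 acinar markers summed to 8.37 to 8.54 in Trsp-Ins1KO, 8.74 to 10.2 in Trsp-RIPKO and 2.96 to 3.12 in TrspFF, and 8 of the 9 rose in Trsp-Ins1KO and 9 of the 9 in Trsp-RIPKO. These calls were kept in all 6 fits that left out 1 array, except that on Cel in Trsp-RIPKO, which was lost without Trsp-RIPKO 2 or TrspFF 2 (highest adjusted p = 0.0508). Selenoh was highest in TrspFF, where the acinar level was lowest. Whether these shifts bear on the selenoprotein values was not tested.

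**Figure D5:**
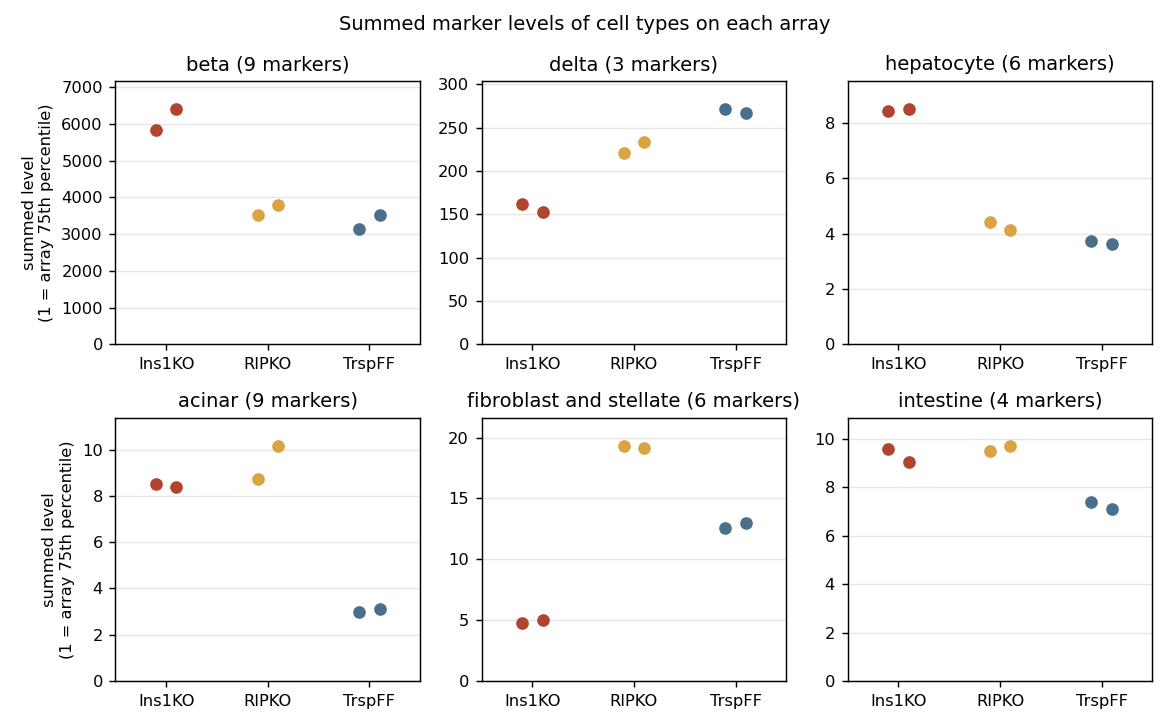
Summed level of the markers of 6 cell types on each array, in multiples of the array's 75th percentile on a linear axis from 0; points are single arrays. Beta and hepatocyte markers are highest and delta and fibroblast markers lowest in Trsp-Ins1KO, and acinar markers are lower in TrspFF than in both knockouts.

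For each of the 7 genes, the named genes whose level followed most closely over the 6 arrays were found among 13369 others by the root mean square difference of mean-centred log2 values. Selenoh was followed most closely by Mrps33, which encodes a mitochondrial ribosomal protein (0.0368), and by Gpx4 (0.0467) and Actr6 (0.0471), against its own range of 0.97 over the arrays. Selenop was followed by Cst3, which encodes cystatin C (0.034), Ciapin1 and Cdk7, Selenow by Gpatch11 (0.0225), Gm5126 and Sgcb, and Selenov by Itga9 (0.0295), Dnajc5 and Nek6. Selenoo was followed by Pgam1, a glycolytic enzyme (0.0155), Eif6 and Yif1a. Msrb1 was followed by Rit1 (0.0183), Uri1 and Hmg20b, and Dio1 probe 1 by Ncoa1, a nuclear receptor coactivator (0.0265), Snapc2 and Aldoa. Gpx4 was thus the only other selenoprotein among the 3 nearest genes of any member. These values describe likeness over 6 arrays in 3 groups.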

How the data were processed

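Per the labels, total RNA of islets was labelled with Cy3, and per the file headers each array (Agilent design 026655) was read with Feature Extraction 10.7.3.1. The deposited scanner files hold a processed intensity for each spot, already corrected for background by the authors' scanner software, with 0 or 1 deposited as marks of detection above background, saturation and outliers. A second deposited file gives log2 values per probe, with no statement of the authors' scaling among the sources; these equalled the scaled and probe-centred log2 intensities to within 0.000612 once columns were matched to arrays by value. Column medians of that table were -0.079 and -0.045 for the columns named Trsp-Ins1KO, 0.011 and -0.029 for Trsp-RIPKO, and 0.087 and 0.141 for TrspFF, since centring was done per probe.

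From the scanner files, 1377 control spots, and spots marked as outliers, were removed, spots of a probe were averaged, and log2 intensity minus the 75th percentile of the array was taken for 39426 probes. Of the probes on the array 26053 (66.1%) were named through RefSeq accessions. The test took the 23199 probes detected well above background on both arrays of at least 1 group. Groups followed the file titles. limma 3.58.1 in R 4.3.3 (lmFit and eBayes, a mean per group over all 6 arrays, two-sided, Benjamini-Hochberg over the probes entered, called under an adjusted p of 0.05) gave each comparison, after tests on simulated data. A list was described by its genes called, each by its brightest probe, and by its median. Every such count stands beside the share of all probes called. That share was 44.6% in Trsp-Ins1KO minus TrspFF, 33.7% in Trsp-RIPKO minus TrspFF and 36.2% between the knockouts. Marker levels were summed over markers tested. The genes named were all 9 probes of the 7 genes, the called genes of largest difference in each list, and the 3 genes closest to each member over the arrays. The 7 genes and all lists were chosen with earlier results of these data known. Alternatives covered quantile and median scaling, normexp background (offset 50), the filter on dim probes, probes per gene, the variance prior, a replicate block, each array left out, each comparison fitted alone, and the authors' table. RefSeq promoter windows were available for all 7 genes.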

Additional observations from a re-analysis of the deposited data

Results flagged for a closer look

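For 3 of the genes the change against TrspFF differed between the 2 knockouts, which was tested directly by the limma comparison of Trsp-Ins1KO with Trsp-RIPKO. In that comparison 36.2% of all probes were called. The TrspFF arrays cancel in the difference, but they enter the estimate of its spread. The same 3 genes passed with the 2 knockouts fitted alone. Selenop was lower in Trsp-Ins1KO than in Trsp-RIPKO by -0.61 on the log2 scale (adjusted p = 0.00487). Selenoo was higher in Trsp-Ins1KO by 0.41 (adjusted p = 0.0206), and by 0.33 to 0.48 with 1 array left out. With normexp correction the Selenoo difference was 0.07 and did not pass. Its 2 Trsp-Ins1KO and 2 Trsp-RIPKO arrays did not overlap, which was so for 70.6% of all probes. Dio1 probe 1 was higher in Trsp-Ins1KO by 0.61 (adjusted p = 0.00618), and its other probes differed by 0.91 (adjusted p = 0.00345) and 0.52 (adjusted p = 0.0985). In this comparison slide and genotype cannot be told apart.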

How the results depend on the processing

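The decreases of Selenoh in both knockouts and of Selenop in Trsp-Ins1KO passed under all 17 alternatives that kept the file titles. These are not 17 separate checks. For each comparison, leaving out either array of the third group gives the same fit as its 2 groups fitted alone. The authors' table matched by value repeats the reported values. The number of the 7 genes called in Trsp-Ins1KO minus TrspFF was 3, and became 5 with probes above background on all arrays, 6 with a trended and robust variance prior, and 2 to 4 with 1 array left out. In Trsp-RIPKO minus TrspFF it was 6, and became 1 without the filter on dim probes and 1 to 6 with 1 array left out. In Trsp-Ins1KO minus Trsp-RIPKO it was 3, and 2 to 4 with 1 array left out. Under the column names of the authors' deposited table it was 3 in Trsp-RIPKO minus TrspFF and 6 in Trsp-Ins1KO minus Trsp-RIPKO. Under those names Trsp-Ins1KO minus TrspFF was 0.93 for Selenoh, 0.20 for Selenow, 0.95 for Selenop, 0.0304 for Selenoo, -0.33 for Selenov, -0.29 for Msrb1, and -0.26, -0.86 and -0.85 for the 3 Dio1 probes. Trsp-RIPKO minus TrspFF was then 0.10 for Selenoh, 0.62 for Selenop, -0.16 for Msrb1 and -0.52 for Dio1 probe 3, and Trsp-Ins1KO minus Trsp-RIPKO was 0.83 for Selenoh, 0.34 for Selenop, -0.13 for Msrb1 and -0.33 for Dio1 probe 3. These reversals follow from the exchange of the 4 columns.

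Other changes of sign were small. Selenoo in Trsp-Ins1KO minus TrspFF ranged from -0.1038 to 0.0437 with 1 array left out, above 0 without Trsp-Ins1KO 2 or TrspFF 1, and Dio1 probe 2 in Trsp-RIPKO minus TrspFF ranged from -0.1285 to 0.034, above 0 without Trsp-RIPKO 1 or TrspFF 1. Msrb1 was -0.0033 in Trsp-Ins1KO minus TrspFF and -0.0262 in Trsp-Ins1KO minus Trsp-RIPKO with normexp, and -0.11 in Trsp-RIPKO minus TrspFF with median scaling, under which Selenoh in Trsp-Ins1KO minus Trsp-RIPKO was 0.0648. The cause of these was not tested. Over all probes, 10344 were called in Trsp-Ins1KO minus TrspFF, against 17122 with normexp, 16687 without the filter, and 4049 and 4706 without TrspFF 1 and TrspFF 2. In Trsp-RIPKO minus TrspFF 7820 were called, against 2826 without the filter and 3186, 1065, 718 and 1084 without Trsp-RIPKO 1, Trsp-RIPKO 2, TrspFF 1 and TrspFF 2. In Trsp-Ins1KO minus Trsp-RIPKO 8390 were called, against 14805 with normexp, 13702 without the filter, and 4736 and 4640 without Trsp-RIPKO 1 and Trsp-RIPKO 2.

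Same-numbered arrays deviated together only weakly (r of 0.08, 0.081 and 0.089 over probes), so the numbers were not taken to pair the arrays. With a replicate block 2, 6 and 3 of the 7 genes were called in the 3 comparisons, the call on Msrb1 in Trsp-Ins1KO being lost and no other. A slide block could not be fitted for Trsp-RIPKO, whose arrays fill slide 2. In a fit that left out 1 array, the single array left in its group was assumed to vary like those of the other groups.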
